A study of Homo sapiens with 8 samples.

Results

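The 9 genes described here encode the enzymes, the receptor and the inhibitors through which cells activate plasminogen and cleave the extracellular matrix, namely PLAU, PLAUR, PLAT, SERPINB2, MMP1, MMP2, MMP14, TIMP1 and TIMP2. They were chosen by symbol and were matched through the accessions of the array probes to 9 of the 19056 genes that could be named on the array. Their expression was followed in A549 cells, an established line from a human lung carcinoma, on 8 one-color Agilent whole human genome arrays. The arrays formed 2 series, each with its own vehicle control. In the EEDS series, cells received 1.25, 5 or 20 μg/mL of an ethanol extract of Descurainia sophia seeds. In the helveticoside series, they received 3.75, 15 or 60 nM of helveticoside, a cardiac glycoside that is present in the extract. The extract was dissolved in dimethyl sulfoxide, and the vehicle is not described further in the sources used here. The labels give 48 h of exposure, whereas the methods of the study give a shorter one for the arrays. Each array held RNA pooled from triplicate cultures of the same line, and each dose had 1 array. There are therefore no replicates, a single dose has no p-value, and agent and series cannot be told apart.

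Urokinase (PLAU) and tissue plasminogen activator (PLAT) are serine proteases that cut plasminogen into plasmin, which dissolves fibrin and can activate other proteases. Urokinase does so at the cell surface, where it is held by its membrane-anchored receptor (PLAUR), and the serpin encoded by SERPINB2 is an inhibitor of both activators. MMP1 is an interstitial collagenase, MMP2 a gelatinase that is secreted as an inactive precursor, and MMP14 a membrane-bound matrix metalloprotease that takes part in the activation of MMP2. TIMP1 and TIMP2 inhibit matrix metalloproteases, and TIMP2 also serves as the bridge between MMP14 and the MMP2 precursor. Epithelial tumor cells are known for making urokinase and its receptor, whereas much of the interstitial collagenase of a tumor often comes from the stroma.

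In both series, PLAUR rose with the dose, and PLAU was more than 2-fold higher at the middle and top doses. PLAT was more than 3-fold lower at the same doses, a size that depended on the background correction, and its fall passed the test for a dose trend with helveticoside. MMP14 was measurably higher at every dose of EEDS. It was not well above background on any helveticoside array, where the limit for this call lay higher, so the agents cannot be compared for it. TIMP2 rose with the dose of helveticoside by a smaller amount, TIMP1 had no log2 ratio above 0.34, and SERPINB2 was not well above background on any array. Levels are given below as the log2 of the background-corrected signal after quantile normalization of the 8 arrays, and ratios as the difference of this level from that of the vehicle control of the same series. "Well above background" is the call of the scanner software, taken here for a probe when at least 0.5 of its usable spots had it. PLAU, PLAUR, PLAT, TIMP1 and TIMP2 met it on 8 arrays, MMP2 on 7, MMP14 on 3, MMP1 on 2 and SERPINB2 on 0. Levels of different genes come from different probes and are not compared with each other.

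Promoter sequences are shown for PLAUR, PLAU and MMP14, because PLAUR and PLAU had the highest ratios among the members well above background on all arrays and MMP14 the highest with EEDS. They are from RefSeq on GRCh38.p14, which was used for names and promoters only and is not stated to be the build behind the array, and each covers the 200 bases before an annotated start of transcription. Of the members, PLAU (with 2 starts), PLAUR, SERPINB2, MMP14 and TIMP1 had an entry that was used. The motifs AP-1 (TGANTCA), CRE (TGACGTCA), EGR (GCGNGGGCG) and NF-kappa B were searched on both strands in the 250 bases before the start, and matches are in capitals.
PLAUR, chr19:43670170-43670369, minus strand: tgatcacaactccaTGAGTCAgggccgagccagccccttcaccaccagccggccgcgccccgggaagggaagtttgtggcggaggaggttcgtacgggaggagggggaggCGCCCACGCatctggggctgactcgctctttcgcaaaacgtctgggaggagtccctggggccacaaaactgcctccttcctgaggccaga
PLAU, chr10:73910932-73911131, plus strand: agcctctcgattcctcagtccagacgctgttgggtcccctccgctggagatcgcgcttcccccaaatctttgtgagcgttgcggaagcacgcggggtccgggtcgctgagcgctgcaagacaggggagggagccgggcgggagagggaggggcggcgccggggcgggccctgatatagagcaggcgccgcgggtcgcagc
MMP14, chr14:22836385-22836584, plus strand: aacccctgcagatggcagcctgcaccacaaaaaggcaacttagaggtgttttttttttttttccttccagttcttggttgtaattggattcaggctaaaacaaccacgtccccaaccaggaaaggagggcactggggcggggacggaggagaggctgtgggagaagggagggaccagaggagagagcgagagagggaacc
The PLAUR promoter held 1 match to the AP-1 motif, which begins 186 bases before the start, and 1 to the EGR motif, which begins 90 bases before it. None of these motifs was found before either PLAU start, MMP14 or TIMP1, and SERPINB2 held 1 match to AP-1, which begins 102 bases before its start. Among 35116 promoter windows of the same length, 6.57% held the AP-1 motif, 8.41% the EGR motif, 1.65% the CRE motif and 5.67% the NF-kappa B motif. A match is a stretch of letters and not a binding site.

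The activator PLAU is encoded on chromosome 10 (73908832 to 73917494) and was read by 10 spots of 1 probe on each array. In the EEDS series, its level was 12.87 on the vehicle control, 14.14 at 1.25 μg/mL, 14.77 at 5 μg/mL and 14.35 at 20 μg/mL. Its spots on 1 array had an SD of 0.04 to 0.06, an error that says nothing of the spread between cultures. In the helveticoside series, the level was 12.43 on the vehicle control, 12.89 at 3.75 nM, 13.87 at 15 nM and 13.76 at 60 nM. After normalization the highest level of both series thus lay at the middle dose. For helveticoside this order is not firm, since the processed signal before normalization was 12890 at 15 nM and 14920 at 60 nM. PLAU was 2.41-, 3.72- and 2.78-fold higher than the control at the rising doses of EEDS and 1.38-, 2.71- and 2.52-fold higher at those of helveticoside. A second PLAU probe with 1 spot, well above background on 8 arrays, gave log2 ratios of 1.58 and 1.62 at the top doses, against 1.48 and 1.33 on the first. A dose trend was tested with limma as a straight line for each series over the dose steps from control to top dose, and the scatter of the 8 arrays about these lines stood in for replicates. The slope of PLAU was 0.51 log2 units per step with EEDS and 0.50 with helveticoside, each with a standard error of 0.19. Neither passed the threshold of 0.05 after Benjamini-Hochberg adjustment over 19046 genes in limma, with adjusted p = 0.124 and 0.146. The normalized levels do not lie on a line, since on that scale the top dose was not above the middle dose.

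The urokinase receptor PLAUR, on chromosome 19 (43646095 to 43670169), had 1 spot and rose from dose to dose in both series. Its level was 10.37 on the EEDS vehicle control, 11.28 at 1.25 μg/mL, 11.51 at 5 μg/mL and 11.96 at 20 μg/mL. With helveticoside it was 9.90 on the control, 10.59 at 3.75 nM, 10.98 at 15 nM and 11.51 at 60 nM. Each treated array was above its control, and each dose was above the one before it. The rise came to 3.02-fold at 20 μg/mL and to 3.05-fold at 60 nM. The limma slope was 0.50 per step with EEDS (standard error 0.07, adjusted p = 0.0183) and 0.52 with helveticoside (standard error 0.07, adjusted p = 0.0214). Without the vehicle or the top-dose array of EEDS the EEDS trend lost its call (limma adjusted p = 0.133 and 0.135), and without the 15 nM array both did (0.0517 for EEDS and 0.0659 for helveticoside). Without the vehicle or the 60 nM array of helveticoside, the helveticoside trend lost it (limma adjusted p = 0.112 and 0.270), so that each call rests on 3 single arrays of 8.

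PLAT, the tissue-type activator on chromosome 8 (42174718 to 42207565), went the other way from PLAU. It was read by 10 spots, of which 8 to 10 were usable on an array. Its level was 8.29 on the EEDS vehicle control, 7.69 at 1.25 μg/mL, 6.56 at 5 μg/mL and again 6.56 at 20 μg/mL. With helveticoside it was 7.58 on the control, 7.56 at 3.75 nM, 5.94 at 15 nM and 5.57 at 60 nM. At the lowest dose of helveticoside, PLAT had a log2 ratio of -0.01 against a spot SD of 0.10, whereas the lowest dose of EEDS had a ratio of -0.60. The middle doses were 3.32-fold (EEDS) and 3.10-fold (helveticoside) lower than the control, and the top doses 3.33-fold and 4.01-fold lower. The direction was kept under every alternative, but the size was not. At the top doses, the log2 ratio was -1.21 and -1.22 from the signal as scanned and -1.21 and -1.20 with normexp, another background correction. It was -2.11 and -1.08 on the values deposited as processed, and -1.02 and -2.72 against the control of the other series. At 60 nM, 5 of the 10 spots were well above background, so this level lies near the limit of the array. The helveticoside slope was -0.76 per step (standard error 0.16, limma adjusted p = 0.0441) and passed the test. The EEDS slope was -0.63 (standard error 0.16, adjusted p = 0.0575) and did not. The helveticoside call was lost without any 1 of the 8 arrays, with limma adjusted p between 0.0574 (without the 20 μg/mL array) and 0.297 (without the 60 nM array).

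SERPINB2, the plasminogen activator inhibitor on chromosome 18 (63887705 to 63903888), gave no measurable signal. Its level lay between 2.92 and 3.01 on the 8 arrays, none of which was well above background. No ratio is therefore given for it, and whether it changed was not detectable on these arrays.

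**Figure D1:**
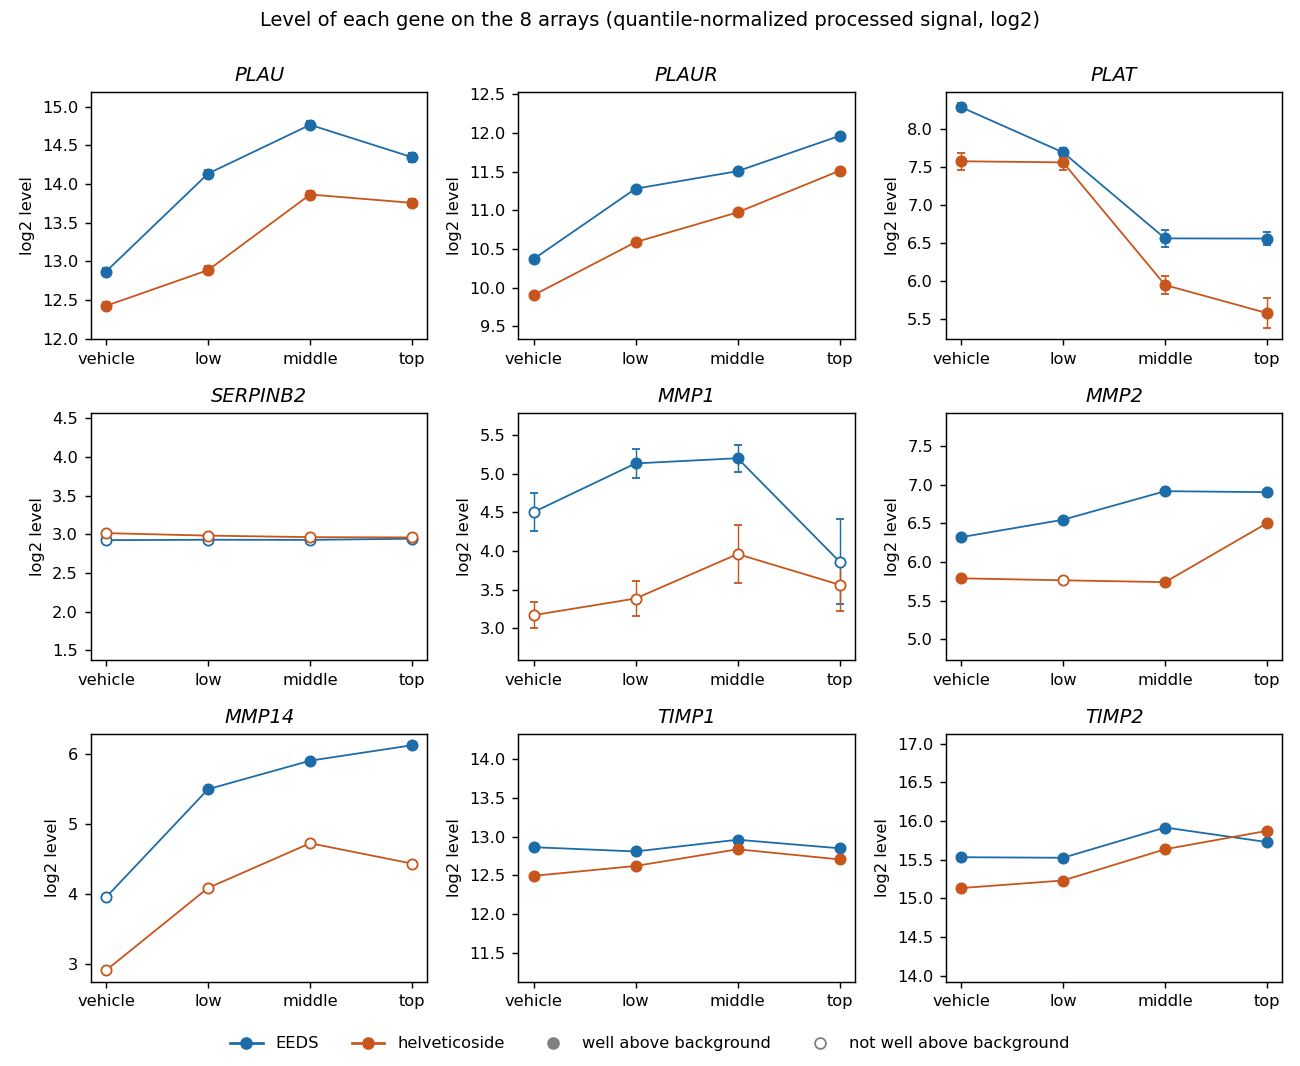
Level of each gene (log2 of the quantile-normalized signal, vertical axis, its own range per panel) on the vehicle control and the low, middle and top dose of EEDS (blue; 1.25, 5 and 20 μg/mL) and helveticoside (orange; 3.75, 15 and 60 nM), with 1 array per point, filled where well above background and error bars for the SD between spots of PLAU, PLAT and MMP1. PLAUR increases at each step from 10.37 to 11.96 and from 9.90 to 11.51, while PLAT ends at 6.56 and 5.57.

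Of the 9 members, MMP14 (chromosome 14, 22836585 to 22847758) had the largest ratios with EEDS, but from a low signal. Its level was 3.95 on the EEDS vehicle control, which was not well above background, and 5.49, 5.90 and 6.12 at 1.25, 5 and 20 μg/mL, which were. On the processed signal, and set against the lowest signal well above background on the control array, MMP14 was at least 1.94-, 2.57- and 2.99-fold higher at the rising doses of EEDS. On the helveticoside arrays its level was 2.91, 4.09, 4.72 and 4.43 from control to top dose. None of these spots was well above background, so that no fold and no order of the doses is given. The lowest level well above background was 4.54 to 4.80 on the EEDS arrays and 5.21 to 5.95 on the helveticoside arrays. A difference of MMP14 between the agents is therefore not shown. The limma slopes were 0.69 with EEDS (standard error 0.21, adjusted p = 0.0790) and 0.52 with helveticoside (standard error 0.21, adjusted p = 0.165), and neither passed. Its ratio also depended on the background: from the signal as scanned, the log2 ratio at 20 μg/mL was 0.71 in place of 2.17. It was 0.71 with normexp and 1.21 on the values deposited as processed. These lie under the bound at that dose, 1.58 on the log2 scale, so the bounds hold for the processed signal only.

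MMP2, on chromosome 16 (55478830 to 55506691), had a level of 6.32, 6.55, 6.91 and 6.90 from the EEDS control to the top dose, and its log2 ratio was thus 0.59 at 5 μg/mL and 0.58 at 20 μg/mL. With helveticoside its level was 5.79, 5.76, 5.74 and 6.50, with log2 ratios of -0.03 and -0.05 at the lower doses, the first of them from a spot not well above background. The array at 60 nM stood above these, at 1.64-fold of the control. Neither limma slope passed (0.21 for each agent with a standard error of 0.11, adjusted p = 0.239 and 0.265). MMP1, on chromosome 11 (102789919 to 102798160), was read by 10 spots near background. Its level was 4.50 on the EEDS control, 5.13 and 5.20 at the lower doses and 3.86 at 20 μg/mL. It was well above background, in 7 of 10 spots each, at 1.25 and 5 μg/mL and on no other array, which makes it at least 1.51- and 1.58-fold higher at these doses. The spot SD of 0.55 at 20 μg/mL shows how little signal is left there. On the helveticoside arrays, where the limit for the call lay higher, its level of 3.17 to 3.96 was below it throughout.

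The inhibitors differed from each other. TIMP1 (chromosome X, 47582436 to 47586789) had a level of 12.86, 12.81, 12.96 and 12.85 in the EEDS series and of 12.49, 12.62, 12.84 and 12.71 in the helveticoside series, with ratios from -0.06 to 0.34. Its slopes were 0.01 and 0.09 with a standard error of 0.05 (limma adjusted p = 0.98 and 0.346). TIMP2 (chromosome 17, 78852977 to 78925387) had a level of 15.53, 15.52, 15.91 and 15.73 in the EEDS series, with its highest value at 5 μg/mL. In the helveticoside series it was 15.13, 15.23, 15.63 and 15.87, each dose above the one before it, and reached 1.67-fold of the control at 60 nM. The helveticoside slope of TIMP2 was 0.26 (standard error 0.06, limma adjusted p = 0.0451), whereas the EEDS slope was 0.10 (standard error 0.06, adjusted p = 0.305). Leaving out any 1 array ended the TIMP2 call, with limma adjusted p between 0.0501 (without the 5 μg/mL array) and 0.333 (without the 60 nM array).

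**Figure D2:**
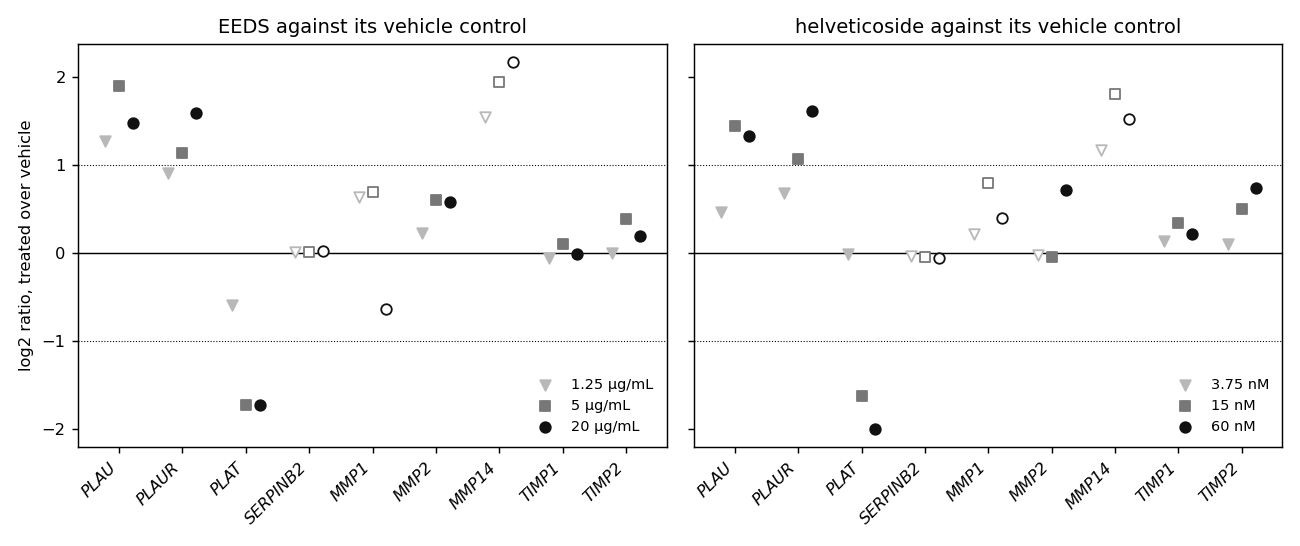
Log2 ratio of each gene to the vehicle control of its own series (vertical axis) at the 3 doses of EEDS (left) and helveticoside (right), 1 array per point, open where the treated or control array was not well above background, with dotted lines at 2-fold. PLAU and PLAUR lie above the upper line at the middle and top doses of both agents, as do the open points of MMP14, and PLAT lies below the lower one, 3.33- and 4.01-fold under the control at the top doses.

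The value after normalization was past 2-fold upward for 3 of 9 members (PLAU, PLAUR and MMP14) at 20 μg/mL EEDS, where that of 13.4% of 19046 genes was, and for the same 3 at 60 nM helveticoside, where that of 10.9% of 19056 genes was. These shares, like the members, include genes below background, and for MMP14 with helveticoside no change was measured, its log2 ratio at 60 nM being 0.39 from the signal as scanned. Downward it was past 2-fold for 1 member, PLAT, at both top doses, against 14.6% and 12.9% of all genes. Among the 6 members well above background on both arrays, 2 were higher and 1 lower at each top dose, with 15% higher and 15.8% lower among all such genes for EEDS and 10.9% and 12.8% for helveticoside. At 5 μg/mL and 15 nM the values of the same 3 members were past 2-fold upward, against 7.39% and 7.15% of genes, and PLAT downward, against 8.48% and 8.12%. Of the 6 well above background on both arrays, PLAU and PLAUR were higher at these doses, against 7.54% and 5.41% of such genes, and PLAT lower, against 8.19% and 6.61%. The number of members past 2-fold in either direction at 15 nM was 4, and it was 2 as scanned and with normexp and 1 on the values deposited as processed and against the control of the other series. At the lowest doses the values of PLAU and MMP14 were past 2-fold with EEDS, against 4.26% of genes, and that of MMP14 alone with helveticoside, against 3.41%. Of these only PLAU was measured as past 2-fold, since MMP14 has a bound of 1.94-fold with EEDS and was below background with helveticoside. No member was past 2-fold downward at these doses, where 3.72% and 4.51% of genes were. Among those well above background on both arrays, 1 of 6 was higher with EEDS and 0 of 5 with helveticoside, against 3.66% and 1.19% of such genes, and none was lower, against 2.96% and 1.16%. The median log2 ratio of the 9 members, values below background included, was 0.23, 0.59 and 0.20 at the rising doses of EEDS. It was 0.13, 0.50 and 0.71 at those of helveticoside, while that of all genes lay between -0.04 and 0.02. Among only the members well above background on both arrays, the median was 0.11, 0.49 and 0.39 with EEDS and 0.13, 0.42 and 0.73 with helveticoside. That of all such genes lay between -0.01 and 0.03. Under scaling by the 75th percentile of the array, the median of all genes moved to -0.20, -0.21 and -0.36 with EEDS and to 0.14, -0.12 and -0.18 with helveticoside. PLAU, PLAUR and PLAT kept their directions at the top doses under that scaling, with log2 ratios of 1.65, 1.78 and -2.26 for EEDS and 1.67, 1.69 and -2.06 for helveticoside. Other members moved across 2-fold: at 60 nM TIMP2 was at 1.09 and MMP14 at 0.89, and at 20 μg/mL MMP1, below background, was at -1.33.

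By limma, 1 member (PLAUR) had an EEDS dose trend, upward, where 7.3% of 19046 genes rose and 7.89% fell. With helveticoside, 2 members rose (PLAUR and TIMP2), where 5.5% of genes did, and 1 fell (PLAT), where 5.85% did. At an unadjusted limma p under 0.05 there were 4 of 9 members with EEDS and 5 with helveticoside, against 33.4% and 29.8% of all genes. The 5 with helveticoside include MMP14, which was not well above background on any array of that series. A slope that differed between the agents after adjustment in limma was found for 0 of 9 members and 0 of 19046 genes, and at an unadjusted p under 0.05 for 0 of 9 members and 2.74% of genes. The difference, helveticoside minus EEDS, was 0.02 for PLAUR (95% interval -0.24 to 0.28), -0.01 for PLAU (-0.67 to 0.65), -0.13 for PLAT (-0.71 to 0.45) and 0.16 for TIMP2 (-0.04 to 0.37) log2 units per step. The intervals of PLAU and PLAT are wide enough to hold differences as large as the EEDS slopes themselves, and that of PLAUR is narrower but does not show equal slopes. The doses of the extract and of the glycoside are in different units, so a step is a rank and not a matched dose.

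**Figure D3:**
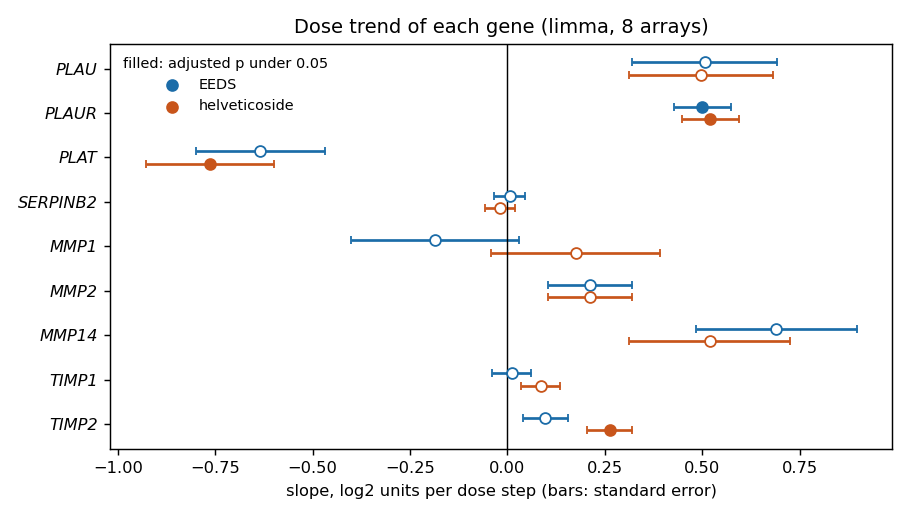
Slope of each gene in log2 units per dose step (horizontal axis) with its standard error, for EEDS (blue) and helveticoside (orange), from limma over 8 arrays, filled where the adjusted p was under 0.05. The filled points are PLAUR for both agents (0.50 and 0.52) and, for helveticoside, PLAT (-0.76) and TIMP2 (0.26).

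The vehicle controls were the only pair of arrays without drug. The 6 members well above background on both were all lower on the helveticoside control, by 0.37 for TIMP1, 0.40 for TIMP2, 0.44 for PLAU, 0.47 for PLAUR, 0.53 for MMP2 and 0.71 for PLAT on the log2 scale. Over the 12390 genes well above background on both controls, the median difference was -0.11, the SD 0.50, and 5.21% were past 2-fold. No member among these 6 was past 2-fold between the controls. The ratios of PLAU, PLAUR and PLAT at the middle and top doses, all at least 1.07 in size, were more than 2 times this SD. After quantile normalization no ratio of TIMP1, TIMP2 and MMP2 was above 0.74. The SD is a spread over genes in 1 pair of arrays from different series. It does not measure the error of a ratio within a series, so this is a scale and not a test. Against the control of the other series, PLAU was at 0.89 and PLAUR at 1.14 for 60 nM helveticoside.

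Over the 8 arrays, with each series set to 0 at its control, the pattern of PLAUR was most like those of DOLPP1 (Pearson r = 0.996), SGPP1 (0.995) and HCN3 (0.994) among 11497 other genes well above background on all arrays. That of PLAT was most like GALNT16 (0.997) and NAMPT (0.995). NAMPT, an enzyme of NAD synthesis, had log2 ratios of -2.46 and -2.98 at the top doses. Among the members, PLAU and PLAUR had r = 0.87, PLAU and PLAT -0.89 and PLAUR and PLAT -0.90. These values describe 8 points that share 2 controls and a common order of doses, and these genes were picked as the highest of all those searched.

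Of 18 further genes of the plasminogen system counted here, 1 (SERPINB8) rose and 2 (F12 and SERPINI1) passed downward with the dose of each agent by limma, against the 7.3% up and 7.89% down of all genes with EEDS and the 5.5% and 5.85% with helveticoside, and 13 were well above background on all arrays. The median log2 ratio of these 13 was -0.32 and -0.38 at the top doses of EEDS and helveticoside. F12, coagulation factor XII, fell to -2.12 and -2.09 at the top doses (limma adjusted p = 0.0187 and 0.0215). The other 2 with a trend, named after their values were seen, were not well above background on every array. SERPINB8, an intracellular serpin, had a log2 ratio of 3.01 at 20 μg/mL EEDS (limma adjusted p = 0.0145) and was at least 7.17-fold higher at 60 nM helveticoside, where the control was not well above background (limma adjusted p = 0.0183). SERPINI1, or neuroserpin, was well above background on 2 of 8 arrays. It was at least 1.75-fold lower at 20 μg/mL EEDS, and at 60 nM helveticoside no fold was measurable, so that its trends rest on values below background.

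Of 22 further matrix metalloproteases and their inhibitors, 3 rose and 1 fell with EEDS by limma, against 7.3% and 7.89% of all genes. With helveticoside 2 rose and 0 fell, against 5.5% and 5.85% of all genes. Of the 22, 9 were not well above background on any array. Among these 9 is MMP11, which is 1 of the 2 with a helveticoside trend, so that this call rests on values below background. TIMP3, another inhibitor, rose, with log2 ratios of 0.25, 0.74 and 1.17 with EEDS and 0.54, 0.86 and 1.37 with helveticoside (limma adjusted p = 0.0192 and 0.0204). MMP15, a membrane-type relative of MMP14, had ratios of -0.05, -0.84 and -2.45 with EEDS and 0.42, -0.20 and -1.24 with helveticoside, and its slopes did not pass (limma adjusted p = 0.0560 and 0.238). MMP10, or stromelysin 2, was named after its values were seen. It was not well above background on either control and was at least 10.0- and 6.38-fold higher at 5 and 20 μg/mL EEDS and at least 2.21- and 4.24-fold higher at 15 and 60 nM helveticoside, so that its highest EEDS level, like that of PLAU, lay at the middle dose.

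**Figure D4:**
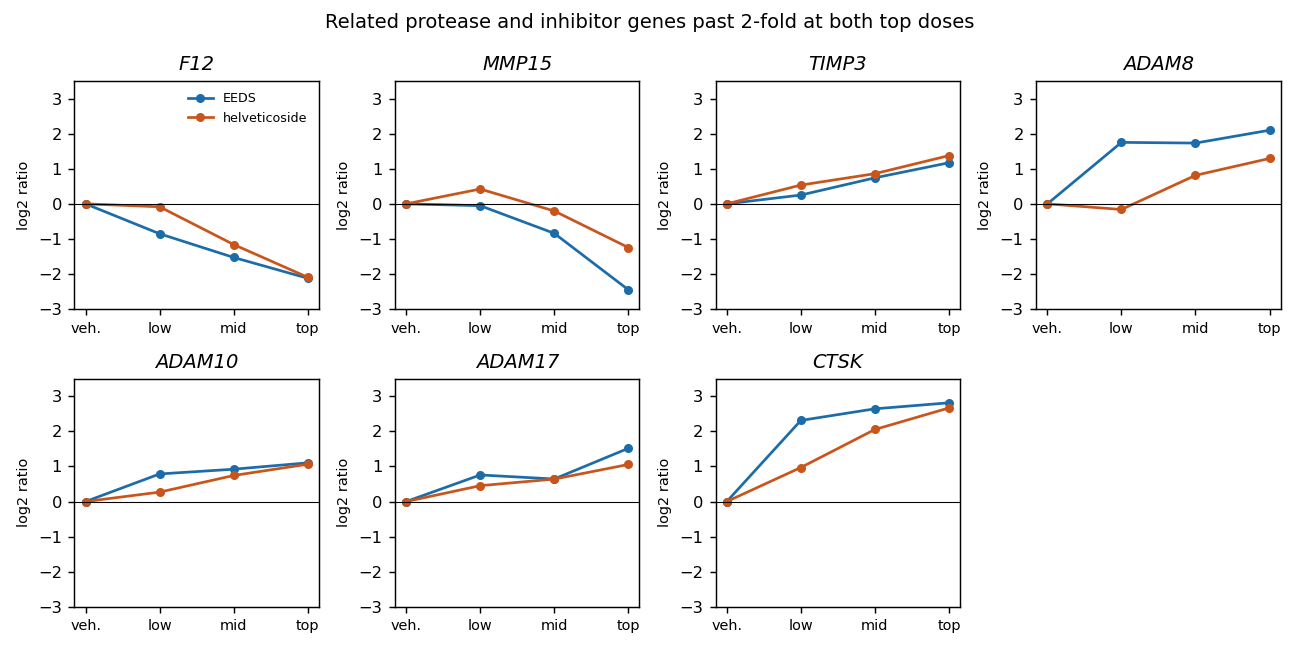
Log2 ratio to the vehicle control of the same series (vertical axis) at the low, middle and top dose of EEDS (blue) and helveticoside (orange) for 7 related protease and inhibitor genes past 2-fold in the same direction at both top doses and well above background on their control and top-dose arrays, 1 array per point. CTSK reaches 2.81 and 2.67, while F12 and MMP15 end below 0.

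The arrays had a median signal of 182 to 278 over a local background of 27 to 34, no saturated spot, and 54.5% to 64.9% of probes well above background, with the lower shares on the helveticoside arrays. The 8 epithelial and A549 markers were well above background on all arrays. Of them, 4 fell with EEDS and 3 with helveticoside by limma, against 7.89% and 5.85% of all genes. Among those that fell with each agent, CDH1, the epithelial cadherin, had the lowest log2 ratio of the 8, -2.68 at both top doses. The median of the 8 was -0.89 with EEDS and -0.93 with helveticoside at these doses, and EPCAM was at 0.05 and -0.25. Among 6 fibroblast markers COL1A1 was well above background on all arrays, while COL1A2, DCN and PDGFRB were so on none, and the log2 of the summed level of the 6 ranged from 8.30 to 9.28 with EEDS and from 8.19 to 8.76 with helveticoside. Of 5 endothelial markers CDH5 was well above background on all arrays and the other 4 on none, with a summed level of 7.26 to 7.44 and of 7.81 to 7.97. Of 6 leukocyte markers PTPRC, CD14 and CD68 were so on all arrays and CSF1R, CD3E and MS4A1 on none, with a summed level of 10.47 to 11.88 and of 10.04 to 11.90. At the top doses of EEDS and helveticoside, the log2 ratios were -1.56 and -2.26 for CD14, 0.89 and 0.94 for CD68 and 0.20 and 0.20 for PTPRC. Each array held RNA of the A549 line, and neither the source of these marker signals nor their part in the ratios of the members was tested. In RNA from whole cultures, fewer A549 cells with a transcript and less of it per cell cannot be told apart.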

How the data were processed

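The RNA of A549 cells, pooled from triplicate cultures, was hybridized to 8 one-color Agilent arrays, 1 per dose. Samples were grouped by the agent and dose in their titles. For each array, the authors deposited the intensity of each spot from Agilent Feature Extraction (version not given in the sources used here): the median signal, the local background, a background-corrected processed signal and its error, and calls of outlier and well-above-background spots. They also deposited a table of intensity values for 34127 probes, which appears from its values to be the median signal minus background, quantile-normalized within each series. It was used as an alternative.

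After removal of outlier spots, each probe was given the mean processed signal of its spots. The 8 arrays were then quantile-normalized together on the log2 scale. On at least 1 array, 22 probes had no usable spot and were left out. Of 34105 probes, 24812 were matched by accession to 19056 genes of GRCh38.p14, and a gene with several probes was represented by the brightest of them on average. Genes were kept in a series when the signal was at least 1.4 times the local background on 1 array, and lower values were raised to the lowest detected signal of the array if below it. Ratios are to the vehicle control of the same series. For a gene well above background on only 1 of both arrays, the fold is a bound against the higher of its own signal and the lowest signal well above background on the dimmer array.

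For dose trends, limma 3.58.1 (with statmod 1.5.0 under R 4.3.3) fitted 1 line for each series, with 4 residual degrees of freedom, and trended and robust variances. The adjusted p is from Benjamini-Hochberg over 19046 genes with a threshold of 0.05. The fit was tested on simulated data, where it found 62% of genes given an EEDS slope of 1 per step and 25% of those given a smaller slope. A slope that did not pass is thus not shown to be absent. The spread is between single arrays and may be technical, and precision is limited by how few arrays there are. No slide or scan date is given in the files used, and the series is the one batch known.

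The members, lists and tests were chosen with earlier results of these data known. Named genes are the 9 members, genes of the related lists well above background on control and top-dose arrays and past 2-fold in the same direction at both top doses, and the 3 genes most correlated with the members of largest rise and fall. Some items that met these rules are not reported here. As alternatives, the steps were repeated on the signal as scanned and after normexp (offset 50), and with 75th-percentile scaling, quantile normalization within a series, the values deposited as processed, the mean of all probes of a gene, the other control, thresholds of 1.5- and 3-fold, other filters and variance settings, linear dose, each series alone and each array left out.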

Additional observations from a re-analysis of the deposited data

How the results depend on the processing

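With 1 array per dose, the dose trends are the results that depended most on the settings, and at these signals SERPINB2 and, with helveticoside, MMP1 and MMP14 could not be measured. No paired analysis was possible because each group holds 1 array. The number of members with an EEDS trend was 1, and it was 2 with the signal as scanned, with normexp and with quantile normalization within each series, 3 with scaling to the 75th percentile, with the values deposited as processed and among genes well above background on all 8 arrays, and 0 with dose as a share of the top dose and with each series fitted alone. The number with a helveticoside trend was 3, and it was 2 with quantile normalization within each series, with the values deposited as processed and with limma variances neither trended nor robust, and 0 with dose as a share of the top dose and with each series fitted alone. With each of the 8 arrays left out in turn, the numbers ranged from 0 to 1 for EEDS and from 0 to 1 for helveticoside, and the number of slope differences was 0 throughout. PLAUR passed in 14 of 19 alternatives for each agent (limma adjusted p 0.00582 to 0.201 for EEDS and 0.00682 to 0.270 for helveticoside), PLAT in 6 for EEDS and 7 for helveticoside, and TIMP2 in 8 for helveticoside. The number of members past 2-fold at 60 nM was 4. It was 3 as scanned, with normexp, on the values deposited as processed and among members well above background on both arrays, 6 with a 1.5-fold threshold, and 2 against the control of the EEDS series and with a 3-fold threshold. At 20 μg/mL it was 4 and lay between 3 and 5. The number past 2-fold between the controls was 2 (MMP1 and MMP14, both below background), and it was 0 as scanned, 0 with normexp, 1 with scaling to the 75th percentile and 0 among members well above background on both, a restriction added after seeing the data. Slopes that did not pass the test changed sign in 7 cases: SERPINB2 with EEDS (-0.12) and MMP1 with helveticoside (-0.0311) on scaling to the 75th percentile, TIMP1 with EEDS on the values deposited as processed (-0.0300), with dose as a share of the top dose (-0.0039) and without the 5 μg/mL array (-0.0011, in a range up to 0.0483 with other arrays left out), MMP1 with EEDS without the 20 μg/mL array (0.35, in a range from -0.64) and MMP2 with helveticoside without the 60 nM array (-0.0246, in a range up to 0.37). The cause was not tested.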

Other observations

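A list of 21 genes held ADAM and ADAMTS metalloproteases and cathepsins, which cleave surface proteins and matrix, and also FURIN, a protease of another family. Of the 21, 13 were well above background on all 8 arrays, FURIN among them. Of these 13, 6 were past 2-fold higher at 20 μg/mL EEDS and 5 at 60 nM helveticoside, and 1 and 0 were past 2-fold lower. Among all genes well above background on both arrays, 15% and 10.9% were higher and 15.8% and 12.8% lower. The median log2 ratio of the 13 was 0.93 and 0.60. By limma, 2 of the 21 rose with EEDS and 1 with helveticoside, and none fell, against 7.3% and 5.5% of all genes upward and 7.89% and 5.85% downward.

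ADAM10, a sheddase of many surface proteins, rose with both agents, with log2 ratios of 1.10 and 1.06 at the top doses (limma adjusted p = 0.0416 and 0.0429), and its second probe gave 1.003 and 0.847. ADAM17, which releases tumor necrosis factor from the cell surface, rose with EEDS (1.52 at 20 μg/mL, limma adjusted p = 0.0343) and was at 1.06 with 60 nM helveticoside (adjusted p = 0.0749). CTSK, a cathepsin that degrades collagen, had ratios of 2.31, 2.64 and 2.81 with EEDS and 0.97, 2.05 and 2.67 with helveticoside, and its slopes did not pass (limma adjusted p = 0.0562 and 0.0600). ADAM8 was at 2.10 and 1.29 at the top doses, and at 1.75 already at 1.25 μg/mL EEDS, where 3.75 nM helveticoside gave -0.16. The difference between the agents was not past the limma threshold for any gene.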
